A study of Peromyscus maniculatus with 6 samples.

Results

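The genes described here make, transfer and trim the N-glycan precursor, the sugar tree that is attached to asparagine residues of proteins entering the endoplasmic reticulum (ER). A list of 49 symbols was matched to the gene names of the deposited table, ignoring case, and 42 were found among 24281 genes. All 42 passed the filter on low counts. Dolpp1, Dpm1, Alg10, Alg11, Alg13, Gnpnat1 and Ostc were not analysed here. The genes were taken in 5 steps, with 8 genes of sugar nucleotide synthesis, 7 of dolichol supply, 10 of lipid-linked assembly, 10 of the oligosaccharyltransferase and 7 of trimming and lectin folding.

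The libraries came from fibroblast cultures of ear punches from 3 deer mice (Peromyscus maniculatus, BW stock) aged 4 weeks. Each animal, BW35770, BW35772 and BW35773, gave 1 control library and 1 library from cells treated with tunicamycin for 5 h. No transgene or mutation is named for either group. The control vehicle is not stated in the labels, and the labelled dose of 5 mg per mL could not be checked.

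The precursor is built on dolichol phosphate, a long lipid in the ER membrane. DPAGT1 adds the first sugar, ALG enzymes extend the chain from nucleotide sugars on the cytosolic side and from dolichol-linked sugars in the lumen, and the oligosaccharyltransferase moves the finished tree to the protein. Glucosidases then trim it, and the lectins calnexin and calreticulin hold the trimmed glycoprotein while it folds. Tunicamycin inhibits DPAGT1 and so starves every later step of substrate. In other mammals several of these genes are known targets of the unfolded protein response, the program set off by misfolded protein in the ER.

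Libraries held 37852385 to 49352126 counts on genes, of which the 42 genes took 0.586 to 0.707%. The ER chaperone gene Hspa5 rose with treatment (edgeR adjusted p = 0.00512) and was higher by 1.68, 1.18 and 1.59 on the log2 scale in BW35770, BW35772 and BW35773. The stress factor gene Ddit3 also rose (edgeR adjusted p = 0.000488), by 3.76, 3.46 and 4.53, in the same order. All 10 fibroblast markers found were above 1 CPM, the TMM-normalised count scaled to a common library size and the unit of all levels below, and their sum ran from 15486 to 21590 CPM in controls and from 15871 to 20748 CPM in treated libraries. Of 6 keratinocyte markers 5, of 4 endothelial markers 3, of 6 immune markers 4 and of 4 muscle markers 2 had a mean under 1 CPM. The T cell marker Cd3e was at 0 in every library. Sums over the keratinocyte markers ran from 5.60 to 23.1 CPM in controls and from 3.41 to 13.1 CPM in treated libraries. The immune sums, mostly Cd68, ran from 88.3 to 181.1 and from 69.9 to 157.3 CPM, the endothelial sums from 1.37 to 4.68 and from 0.873 to 4.01 CPM, and those of 4 muscle markers from 25.9 to 37.4 and from 27.9 to 32.9 CPM. Cartilage markers were also present, and of 6 only Matn1 had a mean under 1 CPM. Their sums were 1867 to 8342 CPM in controls and 2073 to 8877 CPM in treated libraries. The lowest sums in both groups were those of BW35770. The cartilage collagen Col2a1 stood at 743, 5999 and 4538 CPM in the controls of BW35770, BW35772 and BW35773. The fibroblast marker Col1a1 stood at 1107, 2857 and 2708 CPM there, above Col2a1 only in BW35770. Vim, with a control mean of 9316 CPM, was the largest part of the fibroblast sum. No marker of any list was called by edgeR without pairing. With the animal as a block, the keratinocyte marker Krt14 was called lower (adjusted p = 0.02 in edgeR), with log2 differences of -1.01, -1.19 and -0.90 in BW35770, BW35772 and BW35773 and means of 12.1 CPM in controls and 6.11 CPM in treated libraries. In bulk RNA, fewer cells of a type and less RNA per cell cannot be told apart, and the part of the cartilage and keratinocyte genes in the results below was not tested.

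After 5 h of tunicamycin 3 of the 42 genes had risen and 0 had fallen in the fit without pairing. The paired fit called 2 lower as well. The genes that rose were Alg12 and Alg2, mannosyltransferases of the assembly line, and Gmppb, which makes the mannose donor GDP-mannose. A gene is said to have risen or fallen only where the edgeR quasi-likelihood test without pairing gave an adjusted p under 0.05. The p-values were adjusted over all 13503 tested genes. Among all tested genes the same test called 1.78% higher and 0.792% lower. At an unadjusted p under 0.05 in that test 7 members were higher and 4 lower, where 8.88% and 6.64% of all tested genes were. DESeq2 called 6 higher and 3 lower, against 5.01% and 2.97% of all tested genes. The corresponding limma-voom calls were 3 and 0, against 1.61% and 0.770%. All 11 members under the unadjusted threshold belonged to the sugar nucleotide, dolichol and assembly steps. With the animal as a block in the fit (the replicate block), Alg12, Alg2 and Gmppb were higher and Dolk and Alg14 lower, against 3.07% higher and 2.40% lower among all tested genes.

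The treated libraries lay above every control for 8 members, where 12.3% of all tested genes did so, and below every control for 5, where 9.98% did. The first group was Gmppb, Gmppa, Uap1, Dhdds, Dpagt1, Alg2, Alg12 and Alg6, and the second Srd5a3, Dolk, Alg14, Alg9 and Alg8. None of the 17 transferase and trimming genes was among them. Within the animals, 12 members were higher in all 3 pairs, where 20.7% of all tested genes were, 9 were lower in all 3, where 21.7% were, and 21 went different ways. The median log2 fold change over the 42 genes was 0.042, beside -0.010 over all tested genes.

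**Figure D1:**
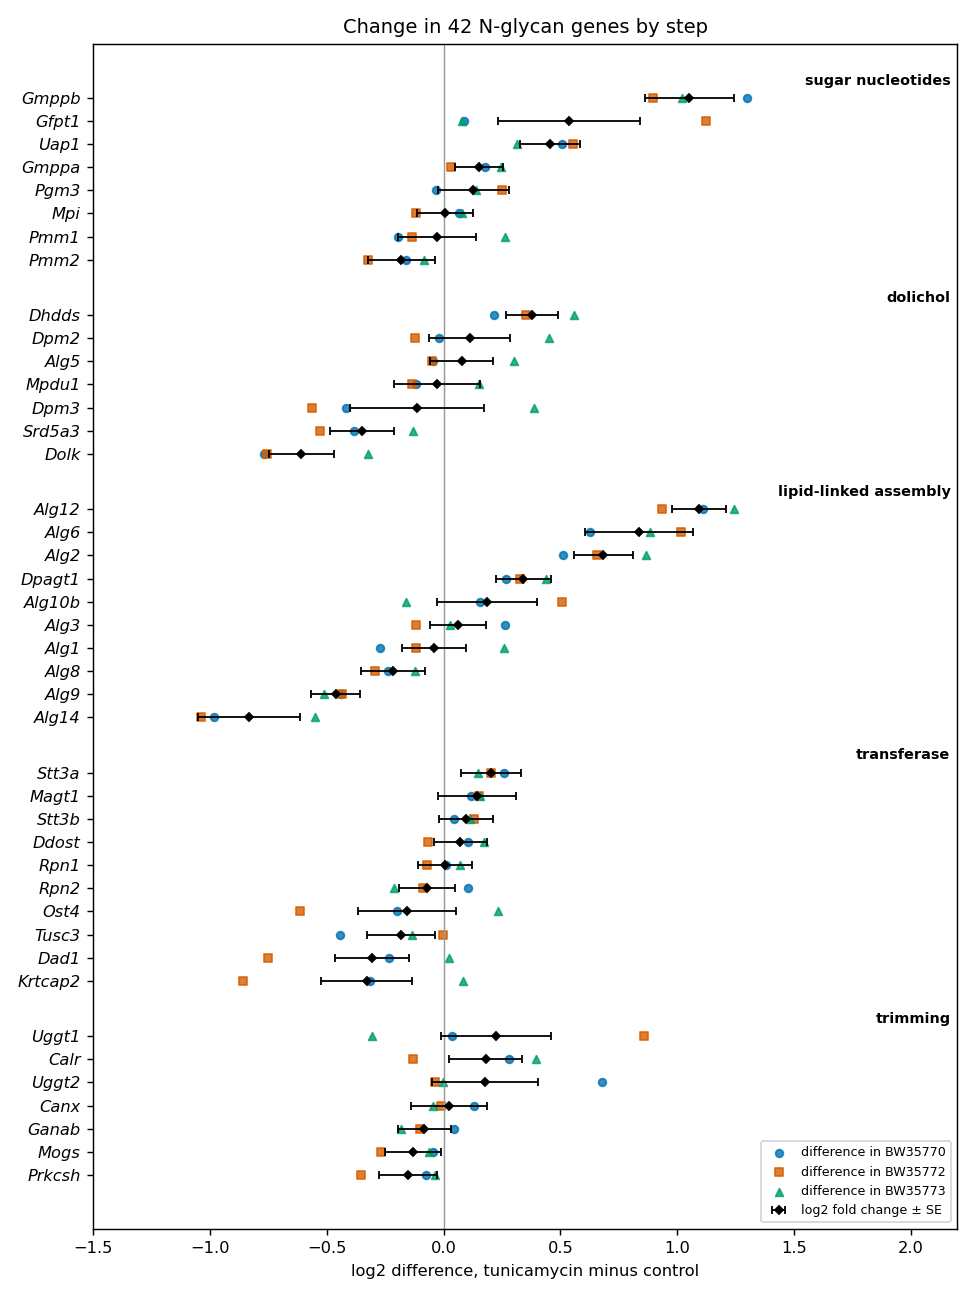
Log2 difference between tunicamycin and control for each of the 42 genes, by step. Coloured symbols are the differences within each of 3 animals and black diamonds the edgeR log2 fold change with its SE. Gmppb, Alg12 and Alg2 stand to the right in every animal, Dolk and Alg14 to the left, while the log2 fold changes of the transferase and trimming genes lie between -0.33 and 0.22. Single animals of these last steps lie farther out, such as Krtcap2 at -0.86 and Uggt1 at 0.86 in BW35772.

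Sugar nucleotide synthesis supplies UDP-N-acetylglucosamine and GDP-mannose, the donors of the cytosolic reactions. Here 1 of 8 genes rose and 0 fell, and the median log2 fold change was 0.14 (range -0.18 to 1.05). At an unadjusted p under 0.05 in edgeR 2 were higher and 0 lower, with 2 and 0 calls in DESeq2 and 1 and 0 in limma-voom. Over all tested genes these shares were 8.88% and 6.64%, 5.01% and 2.97%, and 1.61% and 0.770%, in the same order.

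Gmppb encodes the catalytic subunit of GDP-mannose pyrophosphorylase (ENSPEMG00000008363, scaffold KI615418.1, bases 1159001 to 1161388, minus strand, 9 exons). Its level was 29.7, 45.7 and 45.0 CPM in the controls of BW35770, BW35772 and BW35773, and 73.2, 85.2 and 91.3 CPM after treatment. The lowest treated library thus stood above the highest control, and BW35770 was lowest in both groups. The means were 40.1 ± 9.06 and 83.2 ± 9.21 CPM (SD, n = 3), which differ by 1.05 ± 0.19 on the log2 scale (SE, adjusted p = 0.0347 in edgeR). The call did not survive the loss of any single library in a fit without pairing (edgeR adjusted p from 0.0608 to 0.125). Over these 6 fits the log2 fold change was 0.87 to 1.19. In the paired fit the call was lost without animal BW35770 (edgeR adjusted p = 0.0979).

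Gmppa, the paralog that restrains GMPPB, stood at 89.0, 97.9 and 91.8 CPM in controls and 100.5, 100.1 and 108.7 CPM with tunicamycin. Its groups did not overlap, but the difference of 0.15 ± 0.10 on the log2 scale missed the threshold (edgeR adjusted p = 0.577). The ratio of Gmppb to Gmppa, each per exon length, was 0.398, 0.557 and 0.585 in controls and 0.869, 1.02 and 1.00 in treated libraries. The catalytic transcript thus went from about 0.514 to 0.962 of its partner, with no overlap between the groups.

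The hexosamine branch leads from fructose 6-phosphate to UDP-N-acetylglucosamine. Uap1, its last enzyme, stood at 25.3, 28.1 and 30.5 CPM in controls and 36.0, 41.2 and 37.9 CPM in treated libraries. Its groups did not overlap, and the difference of 0.46 ± 0.13 on the log2 scale missed the threshold (edgeR adjusted p = 0.135, and 0.0875 in the paired fit). Gfpt1, the rate-limiting first enzyme and a known XBP1 target in the mouse, differed between animals. It went from 33.5 to 35.6 CPM in BW35770, from 36.9 to 80.3 CPM in BW35772 and from 35.6 to 37.6 CPM in BW35773. Only the treated library of BW35772 stood apart, and the log2 fold change was 0.54 ± 0.31 with all libraries, 0.064 without that library and 0.083 without that animal. Pgm3, the middle enzyme, had a log2 fold change of 0.13 ± 0.15. The mannose 6-phosphate enzymes Mpi, Pmm1 and Pmm2 had log2 fold changes of 0.006, -0.028 and -0.18, with overlapping groups.

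**Figure D2:**
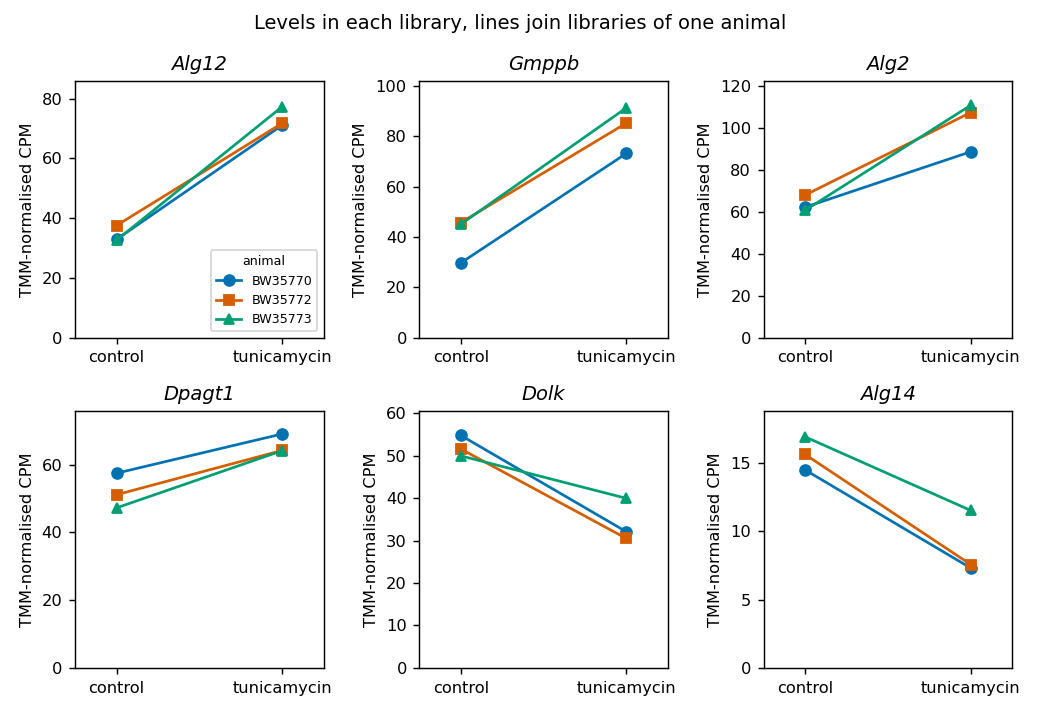
TMM-normalised CPM in every library for 6 genes, with lines joining the control and tunicamycin libraries of each animal. Alg12, Gmppb and Alg2 are higher in each treated library than in any control, Dpagt1 is higher by less, and Dolk and Alg14 are lower, least so in BW35773.

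Dolichol supply covers the lipid carrier and the sugars loaded on it. Of 7 genes 0 rose and 0 fell in edgeR without pairing, and the median log2 fold change was -0.028 (range -0.61 to 0.38). The paired edgeR fit called 0 higher and 1 lower, against 3.07% and 2.40% of all tested genes. At an unadjusted p under 0.05 in edgeR 1 was higher and 2 lower, DESeq2 called 1 and 1, and limma-voom 0. Over all tested genes 8.88% were higher and 6.64% lower at that threshold, and 5.01% and 2.97% in DESeq2. The enzymes of the carrier did not go one way.

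Dolk, the kinase that makes dolichol phosphate, is a gene of 1 exon (ENSPEMG00000007139, scaffold KI615514.1, bases 1771069 to 1772679, minus strand). Its level was 54.8, 51.6 and 50.0 CPM in the controls of BW35770, BW35772 and BW35773, and 32.1, 30.5 and 39.9 CPM after treatment. All treated libraries lay below all controls. The means were 52.1 ± 2.45 and 34.2 ± 5.06 CPM, or -0.61 ± 0.14 on the log2 scale, which missed the threshold (adjusted p = 0.0744 in edgeR). The paired fit called it lower (edgeR adjusted p = 0.0494), and that call was lost without BW35770 (0.506) or BW35772 (0.0597).

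Dhdds, a subunit of the enzyme that builds the polyprenol chain, had 77.0, 75.3 and 71.9 CPM in controls and 89.5, 96.1 and 106.0 CPM in treated libraries. The groups did not overlap, and the difference of 0.38 ± 0.11 on the log2 scale missed the threshold (edgeR adjusted p = 0.147). Srd5a3, the reductase that turns polyprenol into dolichol, stood at 27.2, 26.5 and 23.1 CPM in controls and 20.9, 18.3 and 21.1 CPM with tunicamycin. It lay lower in every animal, at -0.35 ± 0.14 on the log2 scale (adjusted p = 0.276 in edgeR). Alg5, which makes dolichol-phosphate glucose, Dpm2 and Dpm3, subunits of the dolichol-phosphate mannose synthase, and Mpdu1, needed to use these sugars, had log2 fold changes of 0.076, 0.11, -0.11 and -0.028. In each of them BW35773 was higher after treatment and the other animals were lower.

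Lipid-linked assembly held both the highest and the lowest log2 fold change of the 42 genes. Of 10 genes 2 rose and 0 fell without pairing, and the median log2 fold change was 0.12 (range -0.83 to 1.09). The paired edgeR fit called 2 higher and 1 lower, against 3.07% and 2.40% of all tested genes. At an unadjusted p under 0.05 in edgeR 4 were higher and 2 lower, DESeq2 called 3 and 2, and limma-voom 2 and 0. The shares of all tested genes were 8.88% and 6.64%, 5.01% and 2.97%, and 1.61% and 0.770%, in the same order. Summed over the step, the level was 348.2, 355.4 and 331.4 CPM in controls and 410.6, 415.8 and 429.3 CPM in treated libraries.

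Dpagt1, which transfers N-acetylglucosamine phosphate to dolichol phosphate and is the target of tunicamycin, was at 57.5, 51.1 and 47.3 CPM in controls and 69.1, 64.2 and 64.1 CPM in treated libraries. Each treated library stood above each control, with log2 differences of 0.27, 0.33 and 0.44 within BW35770, BW35772 and BW35773. The log2 fold change of 0.34 ± 0.12 was not called, without or with pairing (edgeR adjusted p = 0.213 and 0.137).

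Alg14 anchors the enzyme of the next reaction at the ER membrane (ENSPEMG00000017618, scaffold KI615412.1, bases 5883851 to 5967815, plus strand, 4 exons). It had 14.5, 15.6 and 16.9 CPM in controls and 7.32, 7.58 and 11.5 CPM in treated libraries. Every treated library was below every control, and the difference was smallest in BW35773. The difference of -0.83 ± 0.22 on the log2 scale missed the threshold (edgeR adjusted p = 0.113), while the paired fit called it lower (-0.86 ± 0.17, edgeR adjusted p = 0.0356). Without BW35770 the paired fit gave an edgeR adjusted p = 0.394. Alg1, which adds the first mannose, had a log2 fold change of -0.042 ± 0.14.

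Alg2 adds the branching mannoses on the cytosolic side (ENSPEMG00000018288, scaffold KI615349.1, bases 4415761 to 4421251, plus strand, 2 exons). Its level was 62.3, 68.1 and 60.8 CPM in controls and 88.8, 107.5 and 111.0 CPM after treatment. The groups stood well apart, with BW35770 the lowest treated library. The log2 fold change was 0.68 ± 0.13, with an adjusted p = 0.0371 in edgeR. In unpaired fits the call was lost without each library in turn except the treated one of BW35773 (edgeR adjusted p from 0.0528 to 0.208). Over the 6 unpaired fits without a library the log2 fold change was 0.64 to 0.78. In the paired fit the call was lost without BW35770 (edgeR adjusted p = 0.199).

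Alg3, Alg9 and Alg12 add mannose from dolichol-phosphate mannose in the lumen, and they went different ways. Alg12 (ENSPEMG00000023141, scaffold KI615390.1, bases 393208 to 406542, minus strand, 10 exons) had 32.9, 37.5 and 32.6 CPM in controls and 71.1, 71.8 and 77.3 CPM in treated libraries. The treated mean was 2.14 times the control mean in linear terms, and the spread within each group was small. The means were 34.4 ± 2.76 and 73.4 ± 3.41 CPM, or 1.09 ± 0.12 on the log2 scale (adjusted p = 0.0049 in edgeR). Leaving out the BW35773 control ended the call (adjusted p = 0.0502 in edgeR), as did leaving out BW35770 in the paired fit (0.0769). Over the 6 unpaired fits without a library the log2 fold change was 1.06 to 1.20.

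Alg9, by contrast, had 54.7, 53.7 and 53.5 CPM in controls and 40.4, 39.7 and 37.5 CPM in treated libraries. Both groups were tight and lay apart, yet the difference of -0.46 ± 0.10 on the log2 scale missed the threshold (edgeR adjusted p = 0.0727, and 0.0664 in the paired fit). DESeq2 called it lower (adjusted p = 0.00229), as did edgeR with each library's trend with exon length removed (adjusted p = 0.0419). Alg3 had a log2 fold change of 0.061 ± 0.12 with overlapping groups.

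Alg6, Alg8 and Alg10b add the glucoses that complete the tree. Alg6 was low, at 4.68, 3.40 and 3.35 CPM in controls, and stood at 7.26, 6.93 and 6.23 CPM after treatment. Its groups did not overlap, and the log2 fold change of 0.84 ± 0.23 was called by DESeq2 (adjusted p = 0.00794) but not by edgeR (adjusted p = 0.126). Alg8 had a log2 fold change of -0.22 ± 0.14 and lay lower in every animal. Alg10b had a log2 fold change of 0.19 ± 0.21.

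**Figure D3:**
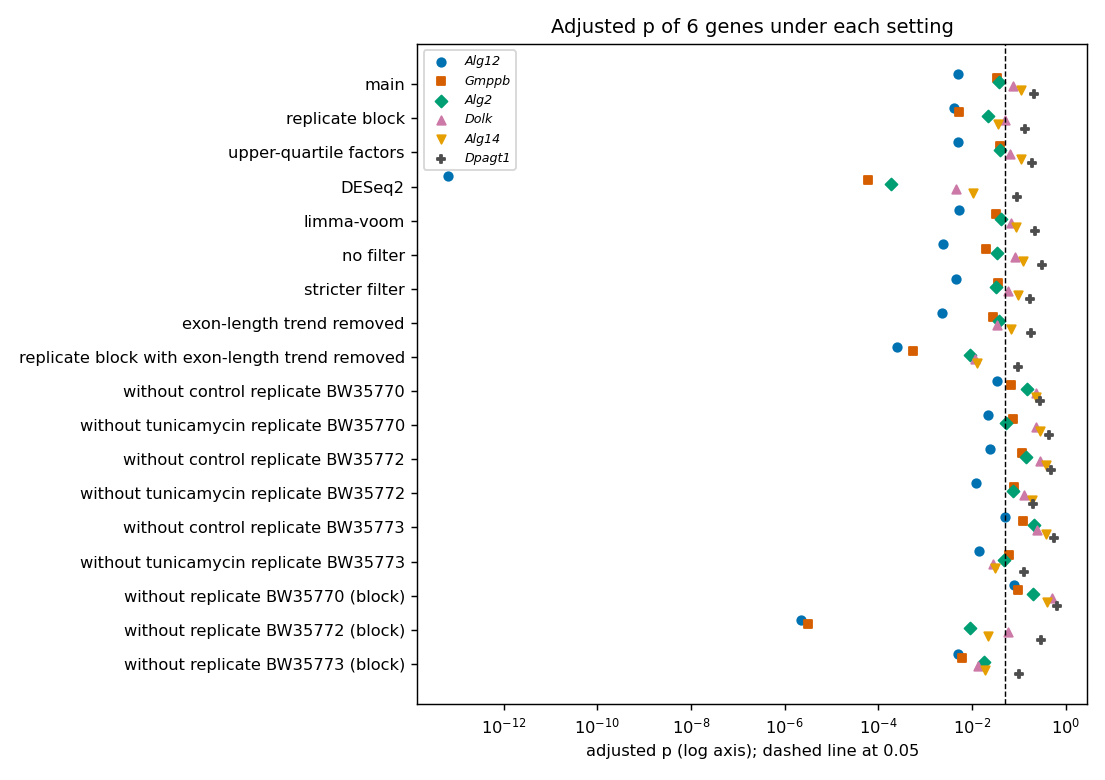
Adjusted p of 6 genes (log axis, threshold of 0.05 dashed) in the fit reported here, labelled main, and under each alternative. Settings that leave out both libraries of an animal use the replicate block. Alg12 passed in most settings, Gmppb and Alg2 passed with all libraries and in few fits without a library, and Dpagt1 passed in none.

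The oligosaccharyltransferase, the membrane complex that transfers the tree, did not pass the test at any subunit. Of 10 genes 0 rose and 0 fell in edgeR, also at an unadjusted p under 0.05, and DESeq2 and limma-voom called 0. Over all tested genes edgeR called 1.78% higher and 0.792% lower, and 8.88% and 6.64% passed the unadjusted threshold. DESeq2 called 5.01% and 2.97% of all tested genes, and limma-voom 1.61% and 0.770%. At such shares 0 calls among 10 genes do not by themselves set the complex apart. Log2 fold changes ran from -0.33 to 0.20, with a median of -0.032. The summed level was 2153, 2418 and 2298 CPM in controls and 2194, 2275 and 2430 CPM in treated libraries, so the groups overlapped.

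Stt3a, the catalytic subunit that works at the translocon, stood at 275.6, 336.4 and 322.1 CPM in controls and 329.8, 387.7 and 356.6 CPM with tunicamycin. It was higher in all 3 animals by 0.15 to 0.26 on the log2 scale, but the groups overlapped, and the log2 fold change was 0.20 ± 0.13, with an adjusted p = 0.543 in edgeR. Stt3b, the alternative catalytic subunit that can act after translation, had 376.5, 392.5 and 351.2 CPM in controls and 388.7, 429.4 and 379.6 CPM in treated libraries, a log2 fold change of 0.096 ± 0.12. The ratio of Stt3a to Stt3b per exon length was 1.90 ± 0.215 in controls and 2.04 ± 0.104 in treated libraries. Magt1 and Tusc3, the exchangeable oxidoreductase subunits of STT3B complexes, stood at a ratio of 1.09 ± 0.213 in controls and 1.36 ± 0.134 with treatment. Both ratios overlapped between the groups but were higher after treatment in each of the 3 animals. That of Stt3a to Stt3b went from 1.66 to 1.93 in BW35770, from 1.95 to 2.05 in BW35772 and from 2.08 to 2.13 in BW35773. That of Magt1 to Tusc3 went from 0.938 to 1.39, from 1.33 to 1.48 and from 0.993 to 1.22, in the same order.

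Among the shared subunits, Rpn1, Rpn2 and Ddost had log2 fold changes of 0.005, -0.070 and 0.071, each with an SE from 0.11 to 0.12. The small subunits varied more between animals. Dad1 had 196.3, 215.3 and 180.9 CPM in controls and 167.1, 127.9 and 183.8 CPM in treated libraries. Krtcap2 had 75.9, 81.0 and 73.1 CPM in controls and 61.0, 44.6 and 77.5 CPM in treated libraries. In both the treated library of BW35772 was the lowest and that of BW35773 was no lower than its control, and Ost4 had the same order. Log2 fold changes were -0.31 ± 0.16 for Dad1, -0.33 ± 0.20 for Krtcap2 and -0.16 ± 0.21 for Ost4.

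These subunits have short transcripts of 389 to 675 exon bases, and differences within an animal moved with exon length. Over the 42 genes Spearman's rho between exon length and the log2 difference was 0.47 in BW35770, 0.54 in BW35772 and -0.19 in BW35773. Over all 13503 tested genes it was 0.28, 0.33 and -0.23, so the same sign was seen in the libraries as a whole. The genes of one animal share 2 libraries, and these values are descriptions. With each library's length trend removed, Dad1 moved from -0.31 to -0.13 and Krtcap2 from -0.33 to -0.16 on the log2 scale. In that fit the edgeR log2 fold changes were 1.12 for Alg12, 1.06 for Gmppb and 0.65 for Alg2, and all 3 were called. Dolk and Alg9 were then also called lower.

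**Figure D4:**
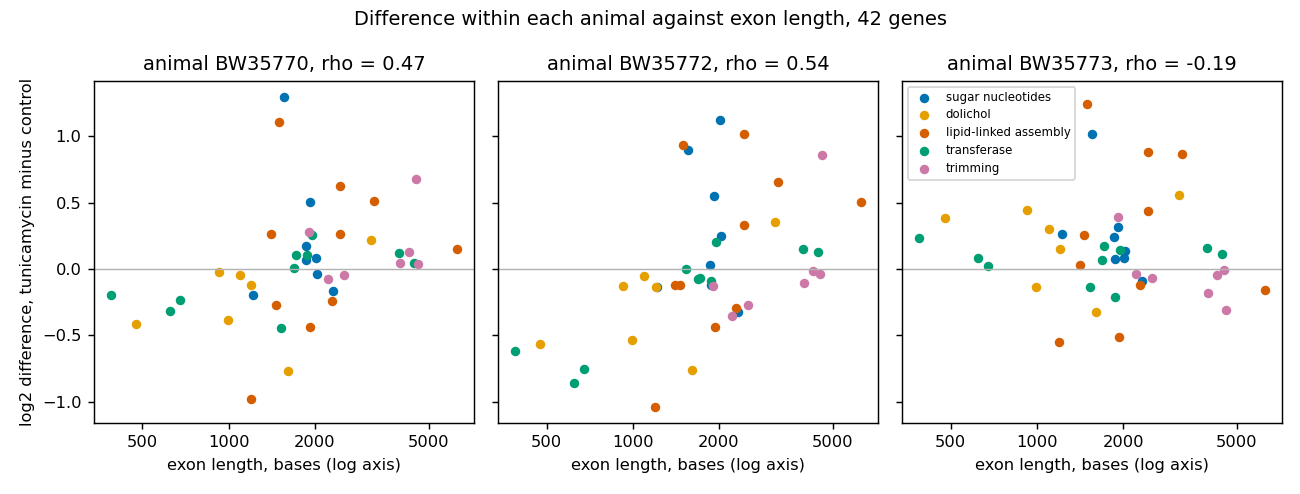
Log2 difference between tunicamycin and control within each animal against exon length (log axis), 1 point per gene, coloured by step. Short genes lie low and long genes high in BW35770 and BW35772, where rho is 0.47 and 0.54, and the slope is slightly the other way in BW35773, where rho is -0.19.

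Trimming and lectin folding also had no member past the test. Of 7 genes 0 rose and 0 fell in edgeR, with 0 at an unadjusted p under 0.05 and 0 in DESeq2 and limma-voom. Over all tested genes these shares were 1.78% higher and 0.792% lower, 8.88% and 6.64%, 5.01% and 2.97%, and 1.61% and 0.770%, in the same order. At such shares 0 calls among 7 genes do not by themselves set the step apart. Log2 fold changes ran from -0.15 to 0.22. Mogs, which removes the outermost glucose, and Ganab and Prkcsh, the subunits of glucosidase II, had log2 fold changes of -0.13 ± 0.12, -0.083 ± 0.11 and -0.15 ± 0.12. Prkcsh stood at 258.3, 289.4 and 285.5 CPM in controls and 245.4, 226.6 and 278.2 CPM in treated libraries, lower in every animal but with overlapping groups. Uggt1, which puts glucose back on misfolded glycoproteins, went from 27.5 to 28.2 CPM in BW35770, from 25.9 to 46.9 CPM in BW35772 and from 35.6 to 28.8 CPM in BW35773. As with Gfpt1, a single treated library stood apart, and the log2 fold change of 0.22 ± 0.23 became -0.14 without BW35772. Its paralog Uggt2 differed most in BW35770, from 6.90 to 11.1 CPM, and stood at 11.0 to 11.5 CPM in the other libraries of both groups.

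Canx, the membrane lectin calnexin, was at 567.9, 741.0 and 580.8 CPM in controls and 622.0, 735.1 and 562.8 CPM in treated libraries. Calr, the soluble lectin calreticulin, had 1484, 1889 and 1618 CPM in controls and 1803, 1727 and 2128 CPM in treated libraries. Animals differed more than treatments in Canx, and in Calr BW35772 was lower and the others higher after treatment. Log2 fold changes were 0.023 ± 0.16 and 0.18 ± 0.16, in order.

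Per exon length, the 42 genes differed in level far more than treatment moved them. In controls the highest of the 42 genes was Calr, at 869.3 ± 107.9 CPM per kb, and the lowest Alg10b, at 1.30 ± 0.13 CPM per kb. Transferase genes ran from 27.4 (Tusc3) to 488.8 CPM per kb (Ost4), the 6 subunits Ost4, Dad1, Rpn1, Ddost, Stt3a and Rpn2 each being above 140 CPM per kb. Assembly genes ran from 1.30 to 46.1 CPM per kb (Alg3), sugar nucleotide genes from 14.5 (Uap1) to 57.0 CPM per kb (Pmm1) and dolichol genes from 23.8 (Dhdds) to 72.4 CPM per kb (Mpdu1). Dpagt1 stood at 21.2 ± 2.11, Alg12 at 23.0 ± 1.85 and Alg2 at 19.8 ± 1.19 CPM per kb in controls. Dpagt1 thus differed from each of the others by less than its SD. In treated libraries Alg12 stood at 49.0 CPM per kb, close to Alg3 at 48.1, while Dpagt1 was at 26.8.

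**Figure D5:**
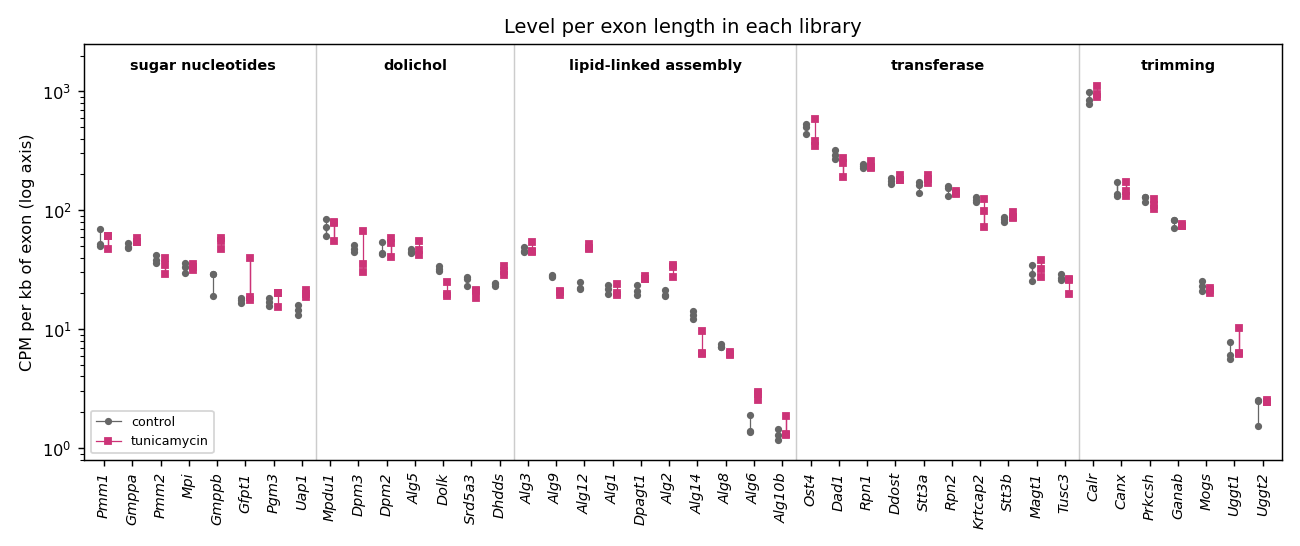
CPM per kb of exon (log axis) of the 42 genes in each control (grey circles) and tunicamycin library (magenta squares), ordered within each step by the control mean. Calr and Ost4 have the highest means and Alg6, Alg10b and Uggt2 the lowest in both groups, and the transferase subunits Magt1 and Tusc3 lie well below the other subunits.

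Other genes of N-glycan biology, listed from textbook knowledge, were read beside these. Of 19 other tested genes that supply, transfer, flip, read or remove N-glycans 0 rose and 0 fell in edgeR. Their median log2 fold change was 0.079, and some of them act in the cytosol. Tmem258, a transferase subunit not among the 42 genes, had a log2 fold change of -0.36 ± 0.23. At an unadjusted p under 0.05 in edgeR 3 of the 19 were higher and 0 lower, DESeq2 called 2 higher and 0 lower, and limma-voom 0. Over all tested genes 8.88% were higher and 6.64% lower at that threshold, and 5.01% and 2.97% in DESeq2. Man1b1, the mannosidase that marks glycoproteins for disposal, was higher in all 3 animals, at 0.46 ± 0.12 on the log2 scale (adjusted p = 0.119 in edgeR). Of 12 tested genes that use dolichol-phosphate mannose for O-mannose, C-mannose or GPI anchors 0 rose and 0 fell in edgeR, with a median of -0.006, 0 higher and 1 lower at an unadjusted p under 0.05 and in DESeq2, and 0 in limma-voom.

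Golgi enzymes and transporters, which mature the glycans after the ER, mostly lay on the lower side. Of 19 tested genes 17 had a log2 fold change below 0, with a median of -0.29, where 6948 of 13503 tested genes were below 0. None was called in edgeR. At an unadjusted p under 0.05 in edgeR 1 was higher and 3 lower, DESeq2 called 0 higher and 2 lower, and limma-voom 0, where 6.64% of all tested genes were lower at that unadjusted threshold and 2.97% in DESeq2. The paired fit called 2 lower, against 2.40% of all tested genes. These were Slc35a1, the CMP-sialic acid transporter, with a log2 fold change of -0.62 in that fit (edgeR adjusted p = 0.0437), and the sialyltransferase St3gal4 with -0.67 (0.0456). Both calls were lost without BW35770 (edgeR adjusted p = 0.441 and 0.413) and without BW35772 (0.0664 and 0.0636).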

How the data were processed

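Counts per gene were deposited by the authors, 1 column per library, raw and not normalised. Reads were aligned with STAR 2.6.1, handled with SAMtools 1.6 and counted with featureCounts, per the submitters' processing notes. No source used here states the genome build or how multi-mapping reads were treated. Libraries were directional, per the labels' protocols. Coordinates and exon length (the sum of exon bases, from the deposited table) are as the table gives them. No genome or sequence table was used, and a planned promoter motif search was not run.

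Genes were kept by filterByExpr (minimum count 10, minimum total 15), scaled by TMM and tested with the quasi-likelihood test of edgeR 4.0.16 in R 4.3.3 (two-sided, Benjamini-Hochberg, threshold 0.05), 3 tunicamycin against 3 control libraries. SE is the log2 fold change divided by the square root of F. Within-animal differences use log2 CPM with a prior count of 2. Replicates are animals. In the unpaired fit p-values measure the spread between their cultures, and in the paired fit the spread of the differences within animals. Titles name the animal, so same-numbered libraries are paired, and their deviations from group means correlated at 0.66, 0.41 and 0.22 across genes. Alternatives were the replicate block, upper-quartile factors, DESeq2 1.42.0, limma-voom 3.58.1, other filters, a lowess exon-length offset, and leaving out libraries or animals. The scripts were tested on simulated data without pairing. There the unpaired edgeR fit recovered 5.71% of changes of 1.5-fold, 40% of 2-fold and 84.3% of 4-fold. The paired edgeR fit recovered 2.86%, 21.4% and 75.7%, in the same order. The simulated libraries had no animal effect, so these last values cannot show how the paired fit recovers changes in these data. Given the low recovery of small changes, a gene that was not called cannot be read as unchanged.

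The members, lists and tests were chosen with earlier results of these data known. Values by library are given for Dpagt1, Stt3a, Stt3b, Canx, Calr, members called in either fit, and the 2 smallest p-values of each step. Other genes were chosen after their values were seen.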

Additional observations from a re-analysis of the deposited data

How the results depend on the processing

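With the replicate block, 3 members were higher and 2 lower, against 415 and 324 of all genes. DESeq2 called 6 members higher (Alg6, Dhdds and Uap1 added) and 3 lower (Alg14, Alg9 and Dolk), with 676 and 401 of all genes. Removal of the exon-length trend gave 3 and 2 members and 298 and 190 of all genes, and with the replicate block as well 5 and 3 members and 724 and 749 of all genes. The block moved calls higher from 69.3 to 56.2% of all calls, and to 49.1% with the trend removed. Upper-quartile factors, limma-voom, no filter and the stricter filter left the members at 3 and 0. Over fits without a library or an animal, members higher ranged from 0 to 4 and lower from 0 to 2, and all genes from 46 to 806 and from 15 to 826. Members higher were 1 without the control or treated library of BW35770 (79 and 97 of all genes) or BW35772 (51 and 170). They were 0 without the control of BW35773 (46 of all genes) or without animal BW35770 (74). They were 2 without the treated library of BW35773 (313), 3 without animal BW35772 (497) and 4 without animal BW35773 (806). Members lower were 2 without the treated library of BW35773 (251 of all genes) or that animal (826) and 1 without animal BW35772 (451). The cause of these shifts was not tested. Step medians ranged from 0.077 to 0.21 (sugar nucleotides), 0.065 to 0.21 (assembly), -0.073 to 0.17 (trimming) and -0.35 to -0.19 (Golgi genes). The dolichol and transferase medians lay on either side of 0 across these settings. Canx, the median gene of the trimming step, changed sign with the length trend removed (-0.035, and -0.027 with the block) and ranged from -0.076 to 0.19 with libraries left out. Uggt1 ranged from -0.14 to 0.48 and Uggt2 from -0.028 to 0.35. Of 408 gene values under alternatives 348 stayed on their side of the threshold with their sign. Of the others, 21 lost a call, 29 gained one and 10 changed sign. Most of these genes were not called in the fit reported here, so staying mostly meant staying uncalled. All 21 losses were in Alg12, Gmppb, Alg2 and Creld2, the only genes of this count called in that fit. The count also takes in genes chosen after their values were seen. The member with the fewest counts, Alg6, stood at 3.81 CPM in controls.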

Other observations

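Alg12 is annotated head to head with Creld2, an ER stress gene, with 2702 bases between their annotated starts. Creld2 had a mean of 95.0 CPM in controls and 191.4 CPM in treated libraries, and was higher by 0.86, 0.69 and 1.42 on the log2 scale in BW35770, BW35772 and BW35773. It rose by 1.01 ± 0.19 (adjusted p-values in edgeR of 0.0365 and, with the replicate block, 0.0157), which stood beside 1.09 ± 0.12 for Alg12. The call for Creld2 was lost without 5 of the 6 libraries in unpaired fits (edgeR adjusted p from 0.0528 to 0.187). It was kept without the treated library of BW35773, and lost in the paired fit without BW35770 (edgeR adjusted p = 0.122). Over the 6 unpaired fits the log2 fold change of Creld2 was 0.82 to 1.14. The gene was chosen after its values were seen. Of the 42 members 11 (26.2%) have a divergent neighbour with a start within 5 kb, and of all tested genes 14.6% do. Dolk starts 404 bases from Nup188, a nuclear pore gene with a log2 fold change of 0.12 ± 0.12, and Alg2 starts 114 bases from a gene without a name in the table, which had -0.52 ± 0.28. Neither neighbour was called, and each log2 fold change had the opposite sign to that of the member. Within BW35773 the signs were the same, with differences of -0.089 for Nup188 and 0.025 for the neighbour of Alg2. They were opposite in the other animals.

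The annotated span of Alg9 overlaps those of 5 other genes, with no shared exon bases. Among them is Cryab, a small heat shock protein gene on the same strand, with 3664 CPM in controls and 2181 CPM in treated libraries (-0.75 ± 0.21 on the log2 scale, with adjusted p-values in edgeR of 0.134 and, with the replicate block, 0.0313). Its level is far above that of Alg9, and its part in the Alg9 value was not tested. Pgm3 shares 170 exon bases with Dopey1 on the other strand.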
